A study of Mus musculus with 17 samples.

Results

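The genes described here are 10 enzymes and enzyme subunits that write, copy or remove 2 repressive chromatin marks in germinal centre (GC) B cells, taken by symbol from the 21848 genes in the gene tables: Ezh2, Ezh1, Eed and Suz12 of Polycomb repressive complex 2, and Dnmt1, Uhrf1, Dnmt3a, Dnmt3b, Tet2 and Tet3 of the DNA methylation machinery. Their unique molecular identifiers (UMIs), each of which stands for 1 captured RNA molecule, were summed per mouse and expressed as CPM, counts scaled to the mouse's total of UMIs. All 10 passed the filter on low counts in sums over mice, and 9 passed it within cell cycle phases, where Dnmt3b was too sparse.

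Polycomb repressive complex 2 places methyl groups on lysine residues of histone H3 and so keeps genes silent. Ezh2 and Ezh1 are its alternative catalytic subunits, Eed binds the finished mark and stimulates the enzyme, and Suz12 holds the complex together. Ezh2 is the form of dividing cells and GC B cells cannot be sustained without it, whereas Ezh1 is typical of resting cells. DNA methylation is copied to the new strand after each replication by Dnmt1, which Uhrf1 recruits to half-methylated sites. Dnmt3a and Dnmt3b methylate new sites, and Tet2 and Tet3 oxidize methylated cytosine as a step towards its removal.

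The study asked whether GC B cells adjust somatic hypermutation, the mutation of their antibody genes, while a clone divides in a burst. Recipient mice congenic for CD45.1 were primed with ovalbumin (OVA), received B1-8hi B cells specific for the hapten NP and were immunized in the footpads with NP-OVA. A small share of the transferred cells expressed the uptake receptor DEC-205 and carried, beside IghB1-8hi/+, a doxycycline-repressible H2B-mCherry reporter (Col1a1 tetO-H2B-mCherry, Vav-tTA) that records division. The others were Ly75-/- and lacked DEC-205. On day 7 some mice received 5 µg of anti-DEC-OVA, an antibody that delivers OVA to DEC-205+ cells, so that these present it to T cells, move to the dark zone and divide. GC B cells were sorted from lymph nodes, hashed by mouse and sequenced with 10x 5′ libraries. The paper gives the mutation counts of this time course for DEC-205+ GC B cells. The groups were 9 mice on day 7 (0 h), 6 untreated and 9 treated mice on day 9 (48 h), and 8 untreated and 7 treated mice on day 10 (72 h), from 2 experiments that each held every group. In a separate set of 7 mice, GC B cells with a Rosa26 DHB-tdTomato reporter, which leaves the nucleus when CDK2 is active, were sorted by imaging 72 h after anti-DEC-OVA into cells with cytoplasmic (CDK2hi) and nuclear (CDK2low) reporter. Per the paper, the sorted cells carried this reporter alone or together with H2B-GFP, and it does not say which mouse had which. All 7 mice gave both populations. Each population was 1 library, so library and population cannot be told apart. The paper compared the populations among cells with a dark zone expression profile. Here the sorted cells were not split by zone, and the part of zone in the results was not tested.

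Each mouse gave 292 to 1045 cells and 1984426 to 13373185 UMIs in the time course, and 278 to 1721 cells and 3988733 to 20883036 UMIs in the CDK2 sort. The paper kept only cells with the B1-8hi pairing of heavy and light chain, whereas the main fits here use all cells. That pairing was found in 32.2 to 77.7% of the cells per mouse in the time course and in 52.8 to 68.3% in the sort. At 48 h it was more frequent in treated than in untreated mice of each experiment. The shares were 70.5 to 77.7% and 62.3 to 67.2% in the larger, and 53.1 to 58.0% and 34.7 to 38.8% in the smaller. Treated cells at 48 h were the deepest of the time course, with a median of 10004 to 14467 UMIs per cell in each mouse against 5030 to 7455 in untreated mice. Between 50 and 166 cell barcodes of each library also occurred in another library. The identity of the cells was checked with 9 GC B cell genes, of which none was at 0 in any group. Their summed level was 4601 to 5746 CPM in untreated and 3732 to 4817 CPM in treated mice at 48 h, where 6 of 9 were lower and 2 higher in treated mice, and 3863 to 4224 CPM in CDK2hi and 5017 to 5541 CPM in CDK2low cells, where 7 of 9 were lower and 2 higher in CDK2hi cells. Summed levels of naive and memory B cell genes were 99.4 to 196 CPM in treated and 237 to 409 CPM in untreated mice at 48 h, and 98.99 to 179 CPM in CDK2hi and 325 to 507 CPM in CDK2low cells. Of 4 myeloid genes, which summed to 4.01 to 6.31 CPM in CDK2hi and 7.64 to 21.2 CPM in CDK2low cells, both that were tested were lower in CDK2hi cells (Lyz2 and Cd68). T cell genes summed to 0.377 to 4.51 CPM in treated and 5.77 to 9.59 CPM in untreated mice at 48 h. All 3 that were tested there, Cd3g, Cd3d and Cd3e, were lower in treated mice. In the sort they summed to 0.175 to 1.54 CPM in CDK2hi and 0.364 to 51.9 CPM in CDK2low cells. Plasma cell genes summed to 1184 to 1990 CPM in treated and 767 to 1495 CPM in untreated mice at 48 h, with 1 of 4 tested, Jchain, called higher. The part of these other cells in the results was not tested.

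The members lie on 8 chromosomes of GRCm39. The Polycomb genes are Ezh2 (chr6:47507073-47572331, minus strand), Ezh1 (chr11:101081934-101117315, minus), Eed (chr7:89603862-89630217, minus) and Suz12 (chr11:79883891-79925421, plus). Those of DNA methylation are Dnmt1 (chr9:20817945-20871184, minus), Uhrf1 (chr17:56610275-56630489, plus), Dnmt3a (chr12:3856007-3964443, plus), Dnmt3b (chr2:153490861-153529650, plus), Tet2 (chr3:133169436-133250900, minus) and Tet3 (chr6:83339355-83436066, minus).

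Windows of 300 bases around the transcription start (250 before to 50 after it) are printed for the 4 members whose windows hold a form of the E2F motif, and for Ezh1, the alternative to Ezh2, whose window holds none. Eed, whose level rose with the 4, and the other members also had no such form in their windows. E2F factors drive genes of DNA replication. The forms searched on both strands were TTTCCCGC, TTTCGCGC, TTTGCCGC and TTTGGCGC, and capitals mark them. The sequences are from RefSeq on GRCm38.p6, read 5′ to 3′ along the gene's strand, and all 10 members matched, with 15 windows. The windows are chr6:47594981-47595280 (Ezh2, minus), chr11:79992856-79993155 (Suz12, plus), chr9:20952574-20952873 (Dnmt1, minus), chr17:56304063-56304362 (Uhrf1, plus) and chr11:101226414-101226713 (Ezh1, minus).
Ezh2: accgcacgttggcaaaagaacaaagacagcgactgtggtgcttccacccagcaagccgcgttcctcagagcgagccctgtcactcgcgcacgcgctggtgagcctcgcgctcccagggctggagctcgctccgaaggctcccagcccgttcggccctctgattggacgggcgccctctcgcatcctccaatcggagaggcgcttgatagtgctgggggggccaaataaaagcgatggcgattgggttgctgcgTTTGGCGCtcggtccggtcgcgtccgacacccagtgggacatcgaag
Suz12: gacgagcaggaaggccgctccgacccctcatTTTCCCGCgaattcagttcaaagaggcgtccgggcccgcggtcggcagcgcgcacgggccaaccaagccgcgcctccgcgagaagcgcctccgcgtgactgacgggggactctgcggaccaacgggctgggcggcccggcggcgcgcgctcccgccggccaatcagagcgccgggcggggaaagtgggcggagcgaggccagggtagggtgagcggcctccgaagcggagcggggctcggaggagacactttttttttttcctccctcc
Dnmt1: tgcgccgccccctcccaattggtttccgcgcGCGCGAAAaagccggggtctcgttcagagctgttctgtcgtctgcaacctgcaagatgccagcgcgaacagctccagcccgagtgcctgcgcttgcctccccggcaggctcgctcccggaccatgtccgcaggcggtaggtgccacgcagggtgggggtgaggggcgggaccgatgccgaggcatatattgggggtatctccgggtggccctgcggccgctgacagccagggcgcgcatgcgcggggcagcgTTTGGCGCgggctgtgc
Uhrf1: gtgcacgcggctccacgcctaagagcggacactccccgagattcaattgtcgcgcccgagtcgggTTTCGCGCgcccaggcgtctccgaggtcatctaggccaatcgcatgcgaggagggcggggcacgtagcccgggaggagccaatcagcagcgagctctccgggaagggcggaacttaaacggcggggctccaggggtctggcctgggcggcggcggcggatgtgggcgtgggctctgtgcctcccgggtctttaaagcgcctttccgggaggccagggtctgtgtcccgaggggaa
Ezh1: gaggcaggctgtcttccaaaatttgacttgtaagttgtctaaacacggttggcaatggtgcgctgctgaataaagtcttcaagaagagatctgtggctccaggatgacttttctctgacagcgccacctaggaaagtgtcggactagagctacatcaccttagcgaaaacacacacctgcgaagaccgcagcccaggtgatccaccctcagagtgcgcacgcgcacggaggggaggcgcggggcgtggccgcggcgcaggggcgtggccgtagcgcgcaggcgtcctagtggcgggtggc

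The motif began 3 bases after the start in Ezh2, 219 bases before it in Suz12 and 185 bases before it in Uhrf1. Dnmt1 held 1 match 219 bases before the start, as GCGCGAAA on the printed strand, and another 33 bases after it. Such a form was present in 744 of all 32851 windows, or 2.26%, and in 4 of the 15 windows of members. For Dnmt1 and Uhrf1 the match lay in 1 of several windows of the gene. The sequence CCAAT, which NF-Y binds, was present in 37.4% of all windows and in 8 windows of 6 members, and the cell cycle homology sequence TTTGAA in 17.9% of all windows and in 4 windows of 4 members. These matches describe letters and not binding, and the motifs were chosen with the expression values known.

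Ezh2, Suz12, Eed, Dnmt1 and Uhrf1 rose and Ezh1 fell in treated against untreated mice at 48 h. The 6 of 10 members that passed the test compare with 47.4% of all genes tested. Of all genes 26.3% rose and 21.1% fell, and of the members 5 rose and 1 fell. Scaled by library totals in place of TMM factors, 1888 genes rose and 3079 fell, and Dnmt3a and Tet3 passed as lower. In a fit without the 0 h mouse with the largest G0-G1 share, 2397 genes rose and 2567 fell. The groups did not overlap for 2 members and for 8.42% of all genes. The changes were modest, at most 1.34-fold for Uhrf1. The de novo and oxidizing enzymes Dnmt3a, Dnmt3b, Tet2 and Tet3 did not pass in this fit, and Dnmt3a passed in 6, Tet3 in 3 and Tet2 in 1 of 12 alternatives. The median log2 fold change of the members was 0.04, against 0.01 over all genes.

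Ezh2 was at 268, 311 and 386 CPM (lowest, median, highest) in untreated and at 355, 378 and 454 CPM in treated mice at 48 h. The lowest treated mice lay within the untreated range of the 2 experiments together. Within the larger experiment untreated mice were at 268 to 313 CPM and treated mice at 355 to 381 CPM. Within the smaller they were at 381 to 386 and 442 to 454 CPM, so neither experiment had overlap. Ezh2 rose 1.28-fold (log2 fold change 0.36 ± 0.06, SE; adjusted p = 4.22e-06). The 12 alternatives all gave a smaller change, of 0.271 to 0.359. Per cell, the median was 2.75 Ezh2 UMIs in untreated and 5.86 in treated mice, beside the greater depth of the treated cells.

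Ezh1 moved the other way. It was at 12.8, 13.1 and 16.5 CPM in untreated and at 8.90, 10.9 and 11.6 CPM in treated mice, with no overlap between the groups. The log2 fold change was -0.33 ± 0.11 (adjusted p = 0.00975). The fall was in the share of UMIs: per cell, the median was 0.119 Ezh1 UMIs in untreated and 0.166 in treated mice, beside the greater depth of the treated cells. The ratio of Ezh2 to Ezh1 UMIs was 16.9 to 30.0 in untreated and 31.4 to 51.0 in treated mice at 48 h, with no overlap, against 14.6 to 32.6 at 0 h. With cells under 2871 UMIs left out and the others thinned to that number, the Ezh1 change was -0.36 and missed the threshold (adjusted p = 0.0944).

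Suz12 rose by 0.33 ± 0.05 on the log2 scale (adjusted p = 1.47e-06), from a median of 194 CPM (160 to 280) to 226 CPM (222 to 304). Eed showed the smallest change that passed, 0.19 ± 0.04 (adjusted p = 0.000316), from 174 CPM (152 to 189) to 189 CPM (176 to 199). In both genes the groups overlapped.

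Dnmt1 was at 344, 369 and 424 CPM in untreated and at 432, 465 and 482 CPM in treated mice at 48 h. Every treated mouse was above every untreated one. Its log2 fold change was 0.37 ± 0.06 (adjusted p = 9.92e-07). Uhrf1 rose by 0.43 ± 0.08 (adjusted p = 2.05e-05), from 146, 155 and 190 CPM to 187, 200 and 228 CPM, with the highest untreated mouse just above the lowest treated one. These 2 mice were from different experiments. Within each experiment the groups were apart, at 146 to 159 and 187 to 206 CPM in the larger and 166 to 190 and 215 to 228 CPM in the smaller.

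Among the enzymes that did not pass at 48 h, Dnmt3a had a log2 fold change of -0.23 ± 0.11 (adjusted p = 0.0801), with 9.66 to 16.0 CPM in untreated and 7.12 to 14.5 CPM in treated mice. Tet2 stood at -0.16 ± 0.14 (adjusted p = 0.369; -0.64 in thinned cells, adjusted p = 0.0190) and Tet3 at -0.11 ± 0.06 (adjusted p = 0.152). With only the groups compared in the fit, Dnmt3a (-0.26, adjusted p = 0.0462) and Tet3 (-0.13, adjusted p = 0.0299) passed. Dnmt3b was nearly absent, with 2 to 49 UMIs per mouse over the time course, and its change of -0.12 ± 0.21 (adjusted p = 0.685) was not detectable at this depth.

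**Figure D1:**
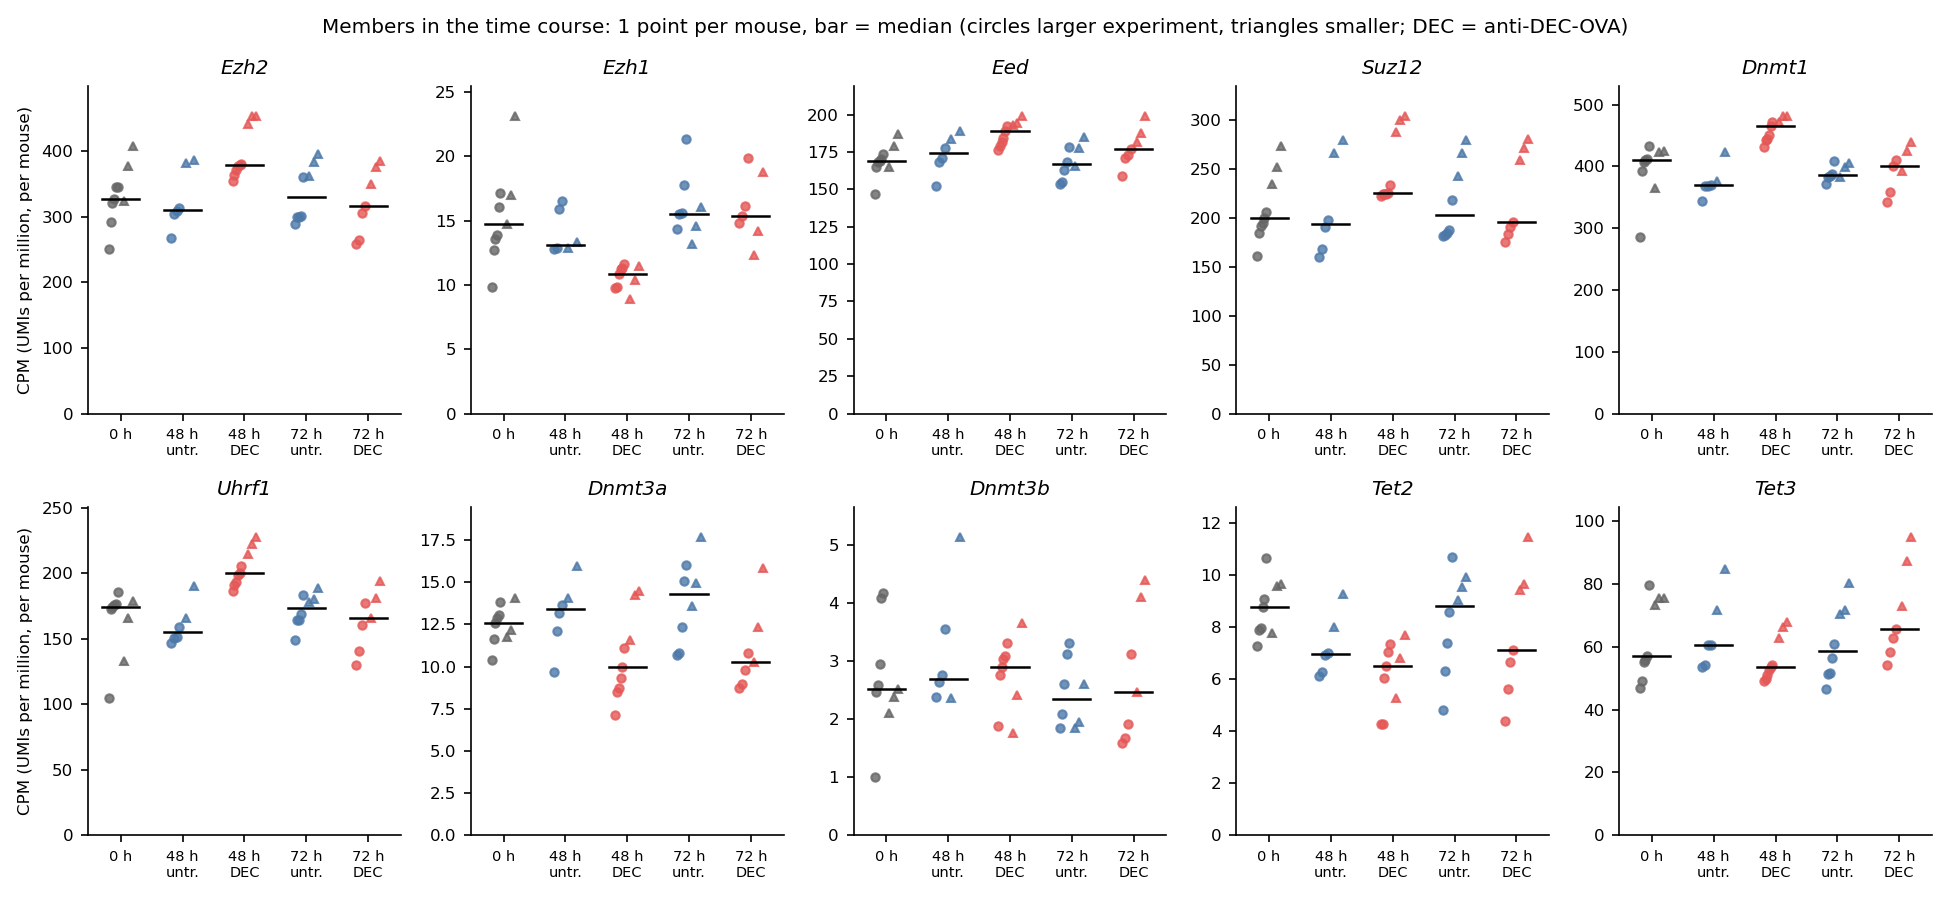
Level of each member in CPM (vertical axis, linear, from 0) in each of the 39 mice of the time course, by group, with the group median as a bar and the 2 experiments marked apart. Treated mice at 48 h sit high for Ezh2, Dnmt1 and Uhrf1 and low for Ezh1, and the smaller experiment sits above the larger for Suz12 and Tet3.

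The experiments differed in level. Suz12 was higher in the smaller experiment than in the larger in all 5 groups without overlap, for example with means of 273 and 179 CPM in untreated mice at 48 h, and Ezh2 had means of 384 and 298 CPM there. Within each experiment the 6 members called at 48 h kept their direction. For Ezh2 the log2 fold change was 0.34 (adjusted p = 0.000894) in the larger and 0.30 (adjusted p = 0.0155) in the smaller experiment. Dnmt1 gave 0.34 (adjusted p = 0.000631) and 0.33 (adjusted p = 0.00667), and Uhrf1 0.40 (adjusted p = 0.00157) and 0.39 (adjusted p = 0.0112).

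Suz12, Eed and Ezh1 passed at 48 h in the larger experiment alone and not in the smaller, which had 2 untreated and 3 treated mice. Suz12 gave 0.36 (adjusted p = 9.62e-05) and 0.19 (adjusted p = 0.0799). Eed gave 0.17 (adjusted p = 0.0159) and 0.14 (adjusted p = 0.202). Ezh1 gave -0.40 (adjusted p = 0.0106) and -0.28 (adjusted p = 0.283). Dnmt3a passed in the larger experiment alone, at -0.38 (adjusted p = 0.0205), and had -0.09 (adjusted p = 0.747) in the smaller.

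At 72 h none of the 6 members called at 48 h passed. Dnmt3a was the 1 member that did, lower in treated mice (log2 fold change -0.41 ± 0.12, 0.752-fold, adjusted p = 0.0263), so that 1 of 10 members was called against 8.55% of all genes. It was at 10.7, 14.3 and 17.7 CPM in untreated and 8.75, 10.3 and 15.8 CPM in treated mice, which overlapped. Within the larger experiment the Dnmt3a change was -0.45 (adjusted p = 0.0554) and within the smaller -0.35 (adjusted p = 0.617), and in thinned cells it was -0.17 (adjusted p = 0.750).

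Ezh2 stood at 258, 317 and 385 CPM in treated and 289, 331 and 395 CPM in untreated mice at 72 h (log2 fold change -0.09, adjusted p = 0.429). Dnmt1 had a log2 fold change of 0.01 (adjusted p = 0.971), Uhrf1 of -0.09 (adjusted p = 0.599), Suz12 of -0.01 (adjusted p = 0.964), Eed of 0.07 (adjusted p = 0.357) and Ezh1 of -0.01 (adjusted p = 0.986). Tet3 was 0.16 higher (adjusted p = 0.133).

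From 48 to 72 h in treated mice, 7 members changed, against 49.1% of all genes. Of these 2 rose and 5 fell, against 22.3% and 26.8% of all genes. The balance over all genes depended on the fit: by DESeq2 2637 genes rose and 2370 fell. This comparison uses the same treated mice as those above. Ezh2 fell by 0.43 on the log2 scale (SE 0.06, adjusted p = 6.17e-08), Uhrf1 fell by 0.43 (adjusted p = 8.06e-06), Dnmt1 fell by 0.33 (adjusted p = 3.31e-06), Suz12 fell by 0.32 (adjusted p = 1.22e-06) and Eed fell by 0.18 (adjusted p = 0.000267). For Ezh2 the 12 alternatives gave smaller changes, of -0.425 to -0.336. Ezh1 rose by 0.48 ± 0.10 (adjusted p = 0.000191), and its 12.3 to 19.9 CPM at 72 h did not overlap the 8.90 to 11.6 CPM at 48 h, which held for 1 member and for 8.42% of all genes. The Ezh1 call was lost in thinned cells (0.42, adjusted p = 0.0529) and in the smaller experiment alone (0.44, adjusted p = 0.0670), and that of Eed in the smaller experiment alone (adjusted p = 0.191). Tet3 rose by 0.17 ± 0.06 (adjusted p = 0.0212), a call that was lost in the larger (0.18, adjusted p = 0.0928) and in the smaller experiment alone (0.25, adjusted p = 0.0523). Per cell, the median was 0.850 Tet3 UMIs at 48 h and 0.611 at 72 h.

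The treatment effect at 48 h was tested against that at 72 h as an interaction. It was larger at 48 h for Uhrf1 (difference of log2 fold changes 0.51 ± 0.11, adjusted p = 0.000524), Ezh2 (0.45 ± 0.08, adjusted p = 0.000108), Dnmt1 (0.36 ± 0.08, adjusted p = 0.000528) and Suz12 (0.34 ± 0.07, adjusted p = 0.00047). For Tet3 the difference was negative (-0.27 ± 0.09, adjusted p = 0.0207), with treated mice at 49.3, 53.7 and 67.8 CPM at 48 h and at 54.2, 65.7 and 94.97 CPM at 72 h. These 5 members, 4 with a positive difference, compare with 31.5% of all genes, of which 18.5% had a positive and 13% a negative difference. In a fit without the 0 h mouse with the largest G0-G1 share, 1633 genes had a positive and 1688 a negative difference. Eed (0.12, adjusted p = 0.141) and Ezh1 (-0.32 ± 0.15, adjusted p = 0.107) did not pass.

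In the larger experiment alone the difference was 0.46 for Ezh2 (adjusted p = 0.00467), 0.38 for Dnmt1 (adjusted p = 0.0126) and 0.40 for Suz12 (adjusted p = 0.00365). In the smaller it was 0.36 for Ezh2 (adjusted p = 0.0583), 0.26 for Dnmt1 (adjusted p = 0.134), 0.17 for Suz12 (adjusted p = 0.352) and 0.42 for Uhrf1 (adjusted p = 0.0692). The Tet3 difference passed in neither, at -0.29 (adjusted p = 0.0920) and -0.33 (adjusted p = 0.151).

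Without treatment no member passed the test against 0 h. By edgeR, 0 of 10 passed at 48 h and at 72 h, 0 had an unadjusted p under 0.05 at either time, and DESeq2 also called 0. Of all genes, 0.127% and 4.41% passed, so 0 of 10 is near the share of all genes. The experiments differed in sign for some members. By edgeR, Ezh1 at 72 h was at 0.29 (adjusted p = 0.194) in the larger and -0.23 (adjusted p = 0.685) in the smaller. Ezh2 was at 251, 328 and 408 CPM at 0 h and Dnmt1 at 286, 410 and 433 CPM.

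**Figure D2:**
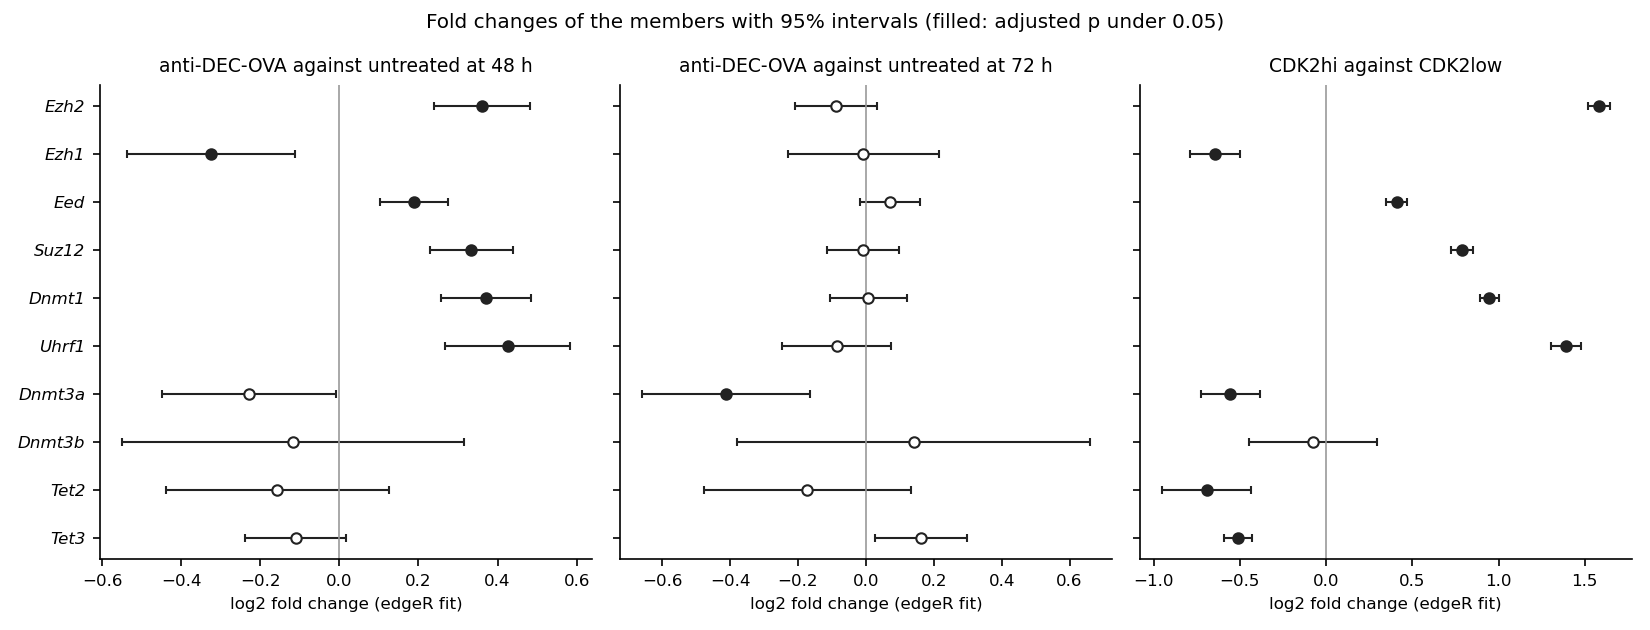
Log2 fold change of each member (horizontal axis) with its 95% confidence interval, for the treatment at 48 h and 72 h and for CDK2hi against CDK2low cells (each panel with its own scale), where filled points mark an adjusted p under 0.05. Ezh2, Suz12, Eed, Dnmt1 and Uhrf1 lie right of 0 at 48 h and in CDK2hi cells and near 0 at 72 h, and Ezh1 mirrors them on the left.

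The CDK2 sort gave larger differences, up to 2.99-fold. As a share of their UMIs, CDK2hi cells had more Ezh2, Uhrf1, Dnmt1, Suz12 and Eed and less Ezh1, Dnmt3a, Tet2 and Tet3 than CDK2low cells of the same mouse. The CDK2low cells were deeper, with a median of 10563 to 14838 UMIs per cell in each mouse against 8929 to 11687 in CDK2hi cells. These 9 of 10 members passed, 5 higher and 4 lower, against 75.1% of all genes, 36.5% higher and 38.6% lower, and 8 of them did not overlap between the populations, against 47.2% of all genes. The median log2 fold change was 0.17 over members and -0.03 over all genes. Scaled by library totals in place of TMM factors, the median of all genes was -0.22, and the 9 members kept their direction and their calls.

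Ezh2 was at 417, 433 and 482 CPM (lowest, median, highest) in CDK2hi and 155, 165 and 206 CPM in CDK2low cells. It was higher in CDK2hi cells of 7 of 7 mice, with ratios of 2.27 to 2.79 within mice, and the fitted change was 2.99-fold (log2 1.58 ± 0.03, adjusted p = 3.08e-24). Scaled by library totals in place of TMM factors, its log2 fold change was 1.38.

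Ezh1 was at 8.39, 9.26 and 11.4 CPM in CDK2hi and 13.5, 17.7 and 18.8 CPM in CDK2low cells, and lower in CDK2hi cells of 7 of 7 mice (log2 fold change -0.65 ± 0.07, adjusted p = 7.84e-09). The ratio of Ezh2 to Ezh1 UMIs was 37.6 to 52.1 in CDK2hi and 8.40 to 12.2 in CDK2low cells.

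Uhrf1 was at 213, 225 and 244 CPM in CDK2hi and 85.02, 98.7 and 119 CPM in CDK2low cells (log2 fold change 1.39 ± 0.04, adjusted p = 2.88e-20). Its partner Dnmt1 was at 460, 485 and 486 CPM and at 269, 283 and 308 CPM (0.95 ± 0.03, adjusted p = 7.72e-21). Both populations were far apart for both genes. Suz12 had 227 to 259 CPM in CDK2hi and 146 to 186 CPM in CDK2low cells (0.79 ± 0.03, adjusted p = 4.98e-18), and Eed 182 to 194 CPM and 150 to 176 CPM (0.41 ± 0.03, adjusted p = 2.04e-12). Scaled by library totals the Eed change was 0.21 (adjusted p = 3.37e-07), and its ratios of CPM within mice were 1.08 to 1.29. Per cell, the median over mice was 2.04 Eed UMIs in CDK2hi and 2.17 in CDK2low cells, with overlapping ranges, against 4.99 and 2.32 for Ezh2.

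Of the genes lower in CDK2hi cells, Tet3 had the most UMIs. It was at 48.4, 52.5 and 59.1 CPM in CDK2hi and 78.1, 90.1 and 92.8 CPM in CDK2low cells (log2 fold change -0.51 ± 0.04, adjusted p = 5.84e-12). Dnmt3a had 6.03 to 7.71 CPM in CDK2hi and 10.8 to 14.9 CPM in CDK2low cells (-0.56 ± 0.08, adjusted p = 1.68e-06). Tet2 was the 1 called member whose populations overlapped, at 3.28 to 6.31 and 5.92 to 12.1 CPM, although it was lower in CDK2hi cells of 7 of 7 mice (-0.69 ± 0.13, adjusted p = 2.24e-05). Dnmt3b was lower in 5 and higher in 2 mice (-0.08 ± 0.18, adjusted p = 0.716).

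**Figure D3:**
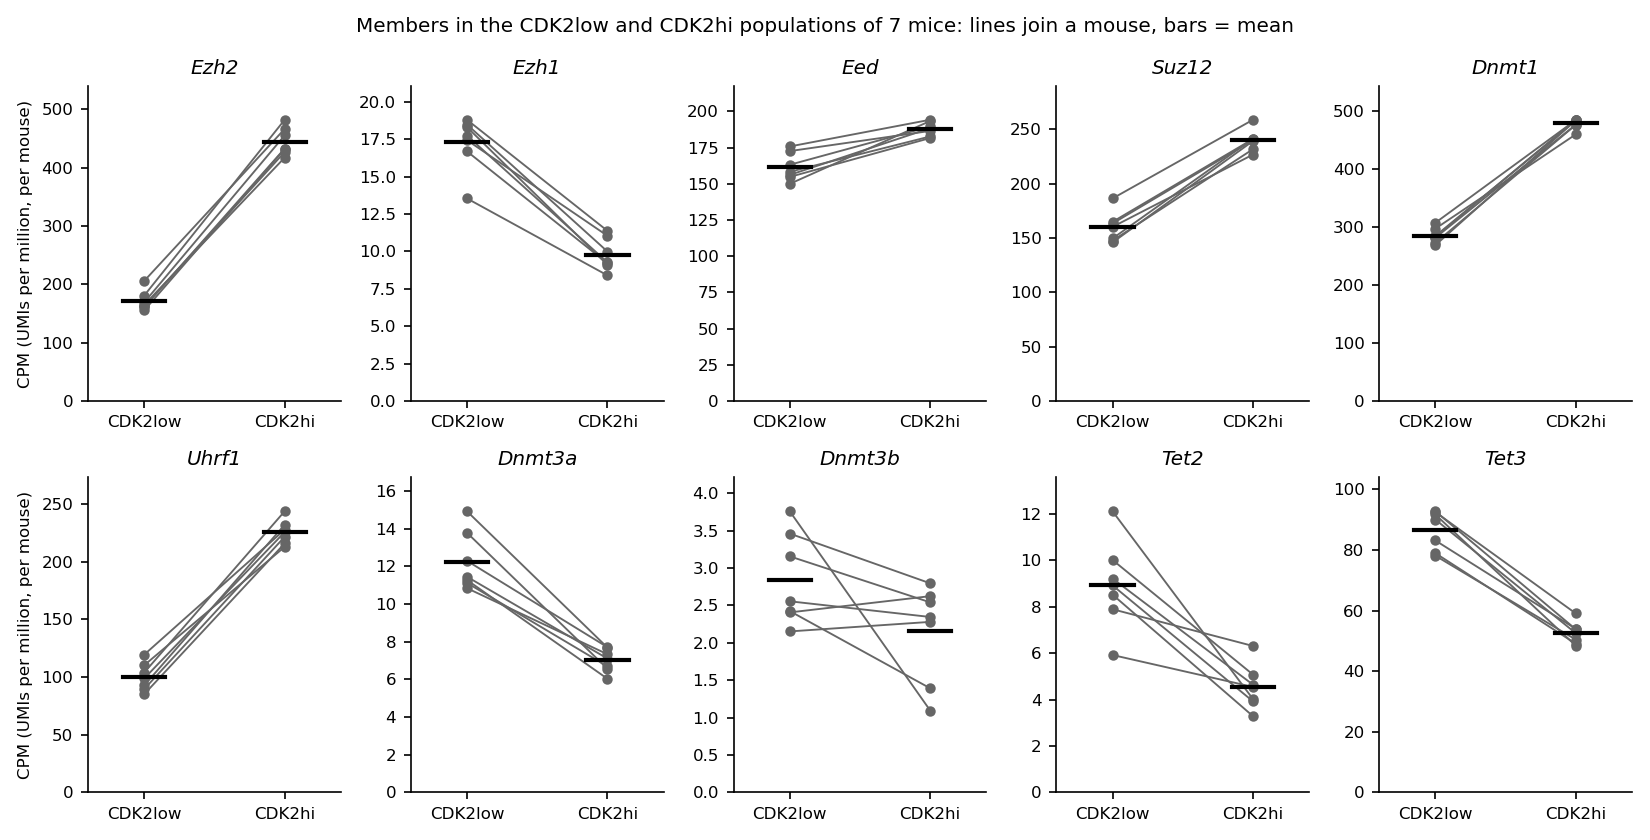
Level of each member in CPM (vertical axis, linear, from 0) in CDK2low and CDK2hi cells, with a line joining the populations of each of the 7 mice. The lines rise towards CDK2hi for Ezh2, Uhrf1, Dnmt1, Suz12 and Eed and fall for Ezh1, Dnmt3a, Tet2 and Tet3 in every mouse, and cross for Dnmt3b.

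The phase composition of the samples moved with these results. Cells were called G0-G1, S or G2-M from the expression of phase genes, with Uhrf1 taken out of the list, as it was the 1 member in it. Calls were made separately in each library. CDK2hi and CDK2low cells were thus called apart, and a called phase may not hold like cells in both. Cells called G0-G1 made up 15.5 to 21.9% of the cells of treated mice at 48 h and 44.0 to 55.2% of untreated mice, 12.6 to 19.0% of CDK2hi and 51.3 to 62.3% of CDK2low cells, and at 72 h 35.3 to 54.6% of treated and 38.0 to 53.3% of untreated cells.

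Within a single group the members differed by phase. In untreated mice at 48 h, mean Ezh2 levels were 117 CPM in G0-G1 cells, 396 CPM in S cells and 435 CPM in G2-M cells. Uhrf1 was highest in S cells, at 10.8 times its G0-G1 level, and stood at 4.12 times in G2-M cells. Dnmt1 was 4.13 times as high in S as in G0-G1 cells, Suz12 2.12 times and Eed 1.32 times. Ezh1 ran against them, with 20.6 CPM in G0-G1, 9.26 CPM in S and 12.9 CPM in G2-M cells. Tet2 in S cells was at 0.615 times and Tet3 at 0.777 times its G0-G1 level, and Dnmt3a was lowest in G2-M cells, at 7.29 CPM against 15.7 CPM in G0-G1 cells. These ratios have no test, since the cells were assigned to phases by genes that vary together with the members.

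The treatment was also compared within each called phase, where sums hold fewer UMIs and fewer of all genes were called. In cells called S at 48 h, 0 of 9 members passed by edgeR and 0 had an unadjusted p under 0.05, against 14.7% of genes called. In G0-G1 cells only Dnmt1 passed (log2 fold change 0.26 ± 0.07, adjusted p = 0.0186), against 8.09% of genes. In G2-M cells Uhrf1 (0.23 ± 0.07, adjusted p = 0.0137), Dnmt1 (0.20 ± 0.06, adjusted p = 0.0163) and Suz12 (0.16 ± 0.05, adjusted p = 0.0394) were higher and Ezh1 (-0.41 ± 0.15, adjusted p = 0.0411) was lower, against 16.8% of genes. With phases called on thinned cells, Uhrf1 (adjusted p = 0.154), Suz12 (0.0931) and Ezh1 (0.133) no longer passed in G2-M cells.

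Phase genes themselves still differed within called phases at 48 h: 6 of 9 S phase genes were higher in treated G0-G1 cells and 9 of 9 in treated G2-M cells. Ezh2 passed in none of the 3 phases. At 72 h, Dnmt1 was higher (0.22 ± 0.07, adjusted p = 0.0277) and Tet2 lower (-0.62 ± 0.19, adjusted p = 0.0304) in treated G0-G1 cells, against 9.39% of genes. The Tet2 call was lost by DESeq2 (adjusted p = 0.0517) and in thinned cells (adjusted p = 0.189). In S cells, where 4.97% of genes were called, 0 of 9 members passed and 2 had an unadjusted p under 0.05. In G2-M cells, with 3.4% of genes called, 0 passed and 1 had an unadjusted p under 0.05. DESeq2 called Tet3 in S cells at 72 h (0.27, edgeR adjusted p = 0.0541, DESeq2 adjusted p = 0.0326).

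**Figure D4:**
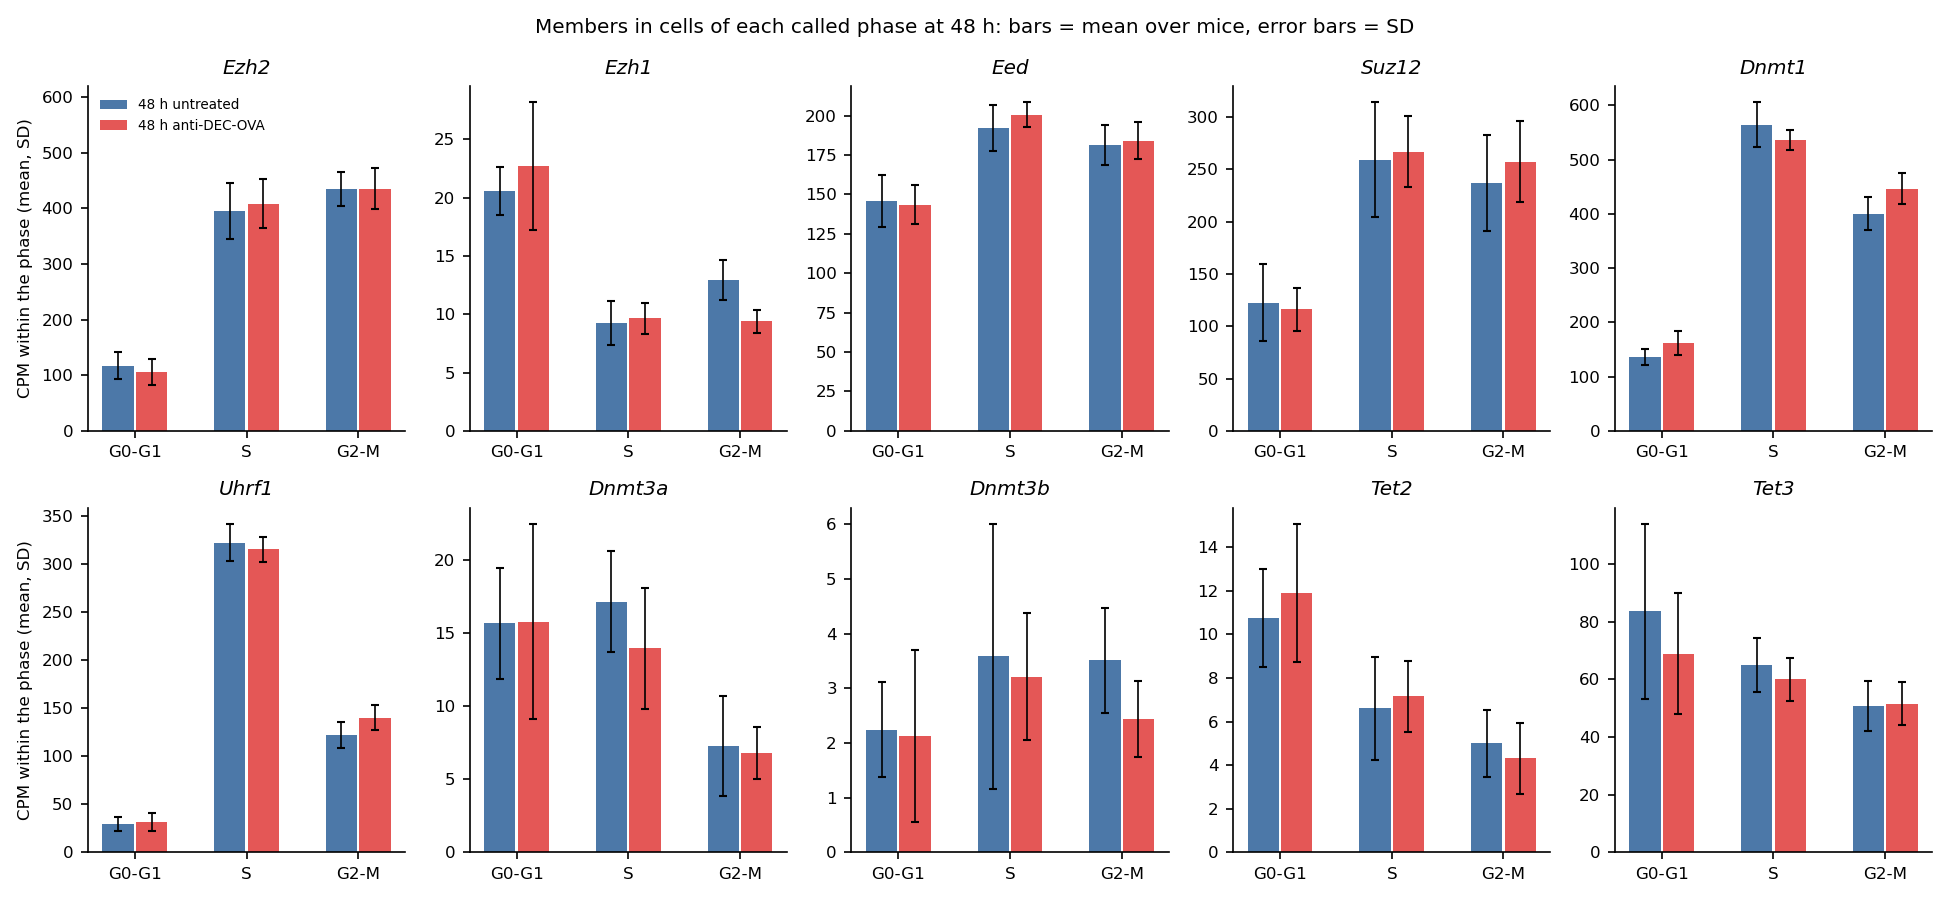
Mean level of members in CPM (bars from 0, with the SD over mice as error bars) in cells called G0-G1, S and G2-M at 48 h, for untreated and treated mice. Ezh2, Dnmt1 and Uhrf1 stand several-fold higher in S and G2-M than in G0-G1 cells in both groups, whereas Ezh1 is highest in G0-G1 cells.

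To set the phase shares beside the changes, the phase levels of the untreated mice at 48 h were weighted by the UMI shares of the phases in treated mice. This weighting gave log2 differences of 0.26 for Ezh2 (0.28 observed on the same CPM scale), 0.25 for Dnmt1 (0.30), 0.30 for Uhrf1 (0.35), 0.17 for Suz12 (0.25) and -0.22 for Ezh1 (-0.41). It gave 0.07 for Eed (0.11), -0.24 for Tet2 (-0.24) and -0.13 for Tet3 (-0.19). It gave -0.11 for Dnmt3a (-0.31) and, opposite in sign to the observed value, 0.12 for Dnmt3b (-0.19). For the sort, the CDK2low levels weighted by the CDK2hi shares gave 0.20 for Ezh2 (1.38 observed), 0.23 for Uhrf1 (1.17), 0.10 for Dnmt1 (0.75) and -0.18 for Tet3 (-0.73), and differed in sign from the observed value for Eed (-0.01, with 0.22 observed) and Dnmt3b (0.20, with -0.40 observed). At 72 h the weighting gave 0.01 for Dnmt3a (-0.34 observed). These values are descriptions with no test, added after the data were seen. For the sort they cannot tell how much of a difference goes with phase, since phases were called separately in CDK2hi and CDK2low cells.

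**Figure D5:**
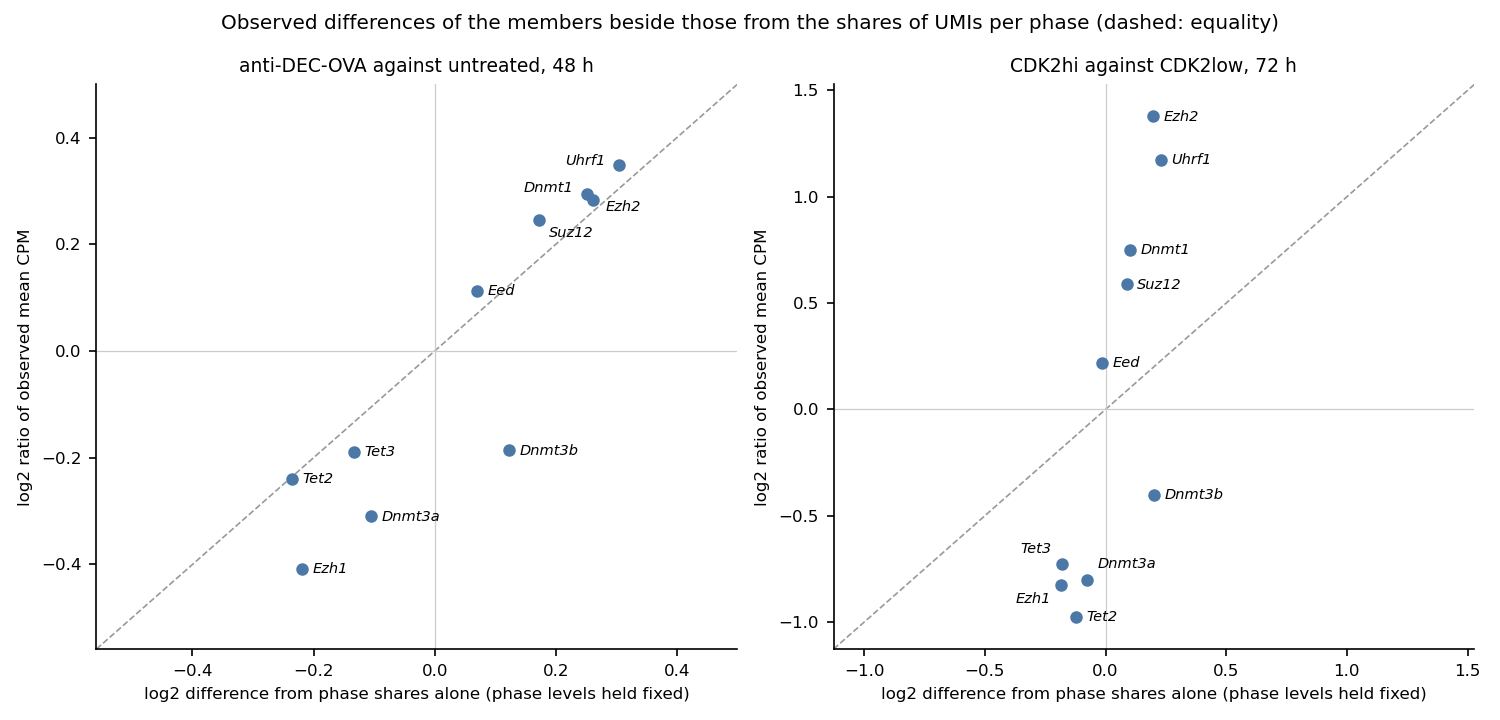
Observed log2 ratio of mean CPM (vertical axis) of each member against the log2 difference that phase shares alone give when the levels within phases are held fixed (horizontal axis), at 48 h (left) and in the CDK2 sort (right), with equality dashed. At 48 h Ezh2, Dnmt1, Uhrf1, Eed, Tet2 and Tet3 lie near the line, and in the sort the members lie far from it, with Ezh2 at 0.20 and 1.38. In the sort, phases were called separately in CDK2hi and CDK2low cells and may not hold like cells.

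Within called phases of the sort, the gap in mean level varied with the member and with the phase. Mean Ezh2 was 179 CPM in CDK2hi and 101 CPM in CDK2low cells called G0-G1, 471 and 250 CPM in S cells, and 495 and 171 CPM in G2-M cells. Uhrf1 was at 87.0 and 22.8 CPM in G0-G1 cells and at 349 and 196 CPM in S cells. Dnmt1 was nearest in S cells, at 565 and 483 CPM. Tet3 in G0-G1 cells was at 55.1 CPM in CDK2hi and 93.0 CPM in CDK2low cells. Tet2 in G0-G1 cells was at 9.59 CPM in CDK2hi and 9.18 CPM in CDK2low cells, and Eed in S cells at 197 and 186 CPM with overlapping mice. In other phases both genes differed more. Tet2 was at 5.07 and 9.08 CPM in S cells and at 2.66 and 7.02 CPM in G2-M cells. Eed was at 187 and 140 CPM in G2-M cells. These means were not tested, and the phases of CDK2hi and CDK2low cells were called separately.

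The partners of the members were counted from lists of their pathways. Their changes are set beside a median log2 fold change over all genes of 0.01 at 48 h and -0.03 in the sort, and beside the shares of all genes called, which were 26.3% higher and 21.1% lower at 48 h and 36.5% higher and 38.6% lower in the sort. Among 8 accessory subunits of Polycomb repressive complex 2, 5 rose and 1 fell at 48 h (median 0.28). The histone chaperone Rbbp7 rose (0.40 ± 0.07, adjusted p = 3.3e-06), as did Epop (0.46 ± 0.17, adjusted p = 0.0278), whereas Phf1, which brings the complex to its targets, fell (-0.81 ± 0.16, adjusted p = 4.36e-05). At 72 h 0 passed. In CDK2hi cells 4 were higher and 2 lower (median 0.32), with Rbbp7 at 1.16 and Phf1 at -1.10 on the log2 scale.

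Of 22 tested genes of Polycomb repressive complex 1, which ubiquitinates histone H2A, 4 rose and 3 fell at 48 h (median 0.02, and 0.02 in the sort). Scmh1 rose by 0.27, Phc3 fell by 0.31 and Rybp fell by 0.28. In CDK2hi cells 9 were higher, among them Cbx2 by 1.11 and L3mbtl2 by 0.71, and 6 were lower. Of all genes, 47.4% were called at 48 h and 75.1% in the sort. Of 7 genes that remove the marks or oppose them, Mysm1 fell by 0.15 and Asxl2 fell by 0.10 at 48 h (list median -0.08). In CDK2hi cells 2 were higher and 3 lower, among them the H3K27 demethylases Kdm6b (-0.48) and Kdm6a (-0.28).

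Of the genes that accompany maintenance methylation at the replication fork, 5 of 7 rose at 48 h and 0 fell (median 0.41), with Pclaf at 0.60, the sliding clamp Pcna at 0.56 and the remodeller Hells at 0.42. At 72 h 0 passed, and 6 fell from 48 to 72 h in treated mice, where 26.8% of all genes fell. In CDK2hi cells 6 were higher and 1 lower (median 0.89), with Pclaf at 2.49, Lig1 at 1.44 and Pcna at 1.39. S phase genes rose in 9 of 9 and G2-M genes in 8 of 8 cases at 48 h, and likewise in CDK2hi cells.

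Among genes of de novo methylation and its removal, at 48 h Tdg (0.27) and Gadd45b (0.26) were among 3 of 5 that rose and Cxxc5 fell by 0.39 (median 0.20). In CDK2hi cells 3 of 5 were higher and 2 lower (median 0.31). At 72 h 3 were higher in treated mice, Gadd45a (0.32), Gadd45b (0.28) and Mbd4 (0.27), where 8.55% of all genes were called. The same 3 were lower in untreated mice at 72 h than at 0 h, by -0.35, -0.29 and -0.20, where 4.41% of all genes were called, and the comparisons share the untreated mice at 72 h. Of 7 readers of methylated DNA, 3 rose and 2 fell at 48 h, with Mbd2 at 0.31 and Zbtb4 at -0.48 (median 0.01). Of 6 genes that make and recycle the methyl donor S-adenosylmethionine, Ahcy (0.31) and Mat2a (0.20) rose at 48 h, and both were higher in CDK2hi cells (0.78 and 0.70). The list's median was 0.07 at 48 h and 0.08 in the sort.

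The list of genes known as targets of Ezh2 in GC B cells held 4 genes, all tested at 48 h. Cdkn2a rose by 0.54 (adjusted p = 0.017) and was 1.51 higher in CDK2hi cells on the log2 scale. Of 2 tested in the sort, the other, Irf4, was lower in CDK2hi cells (-0.58, adjusted p = 0.00022). Irf4, which plasma cells need, fell by 0.97 at 48 h (adjusted p = 7.2e-05) and was at -0.67 at 72 h (adjusted p = 0.059). Prdm1, the regulator of the plasma cell program, was at -0.85 at 48 h (adjusted p = 0.15). At 72 h it was 0.912 to 16.1 CPM in untreated and 0 to 1.76 CPM in treated mice (-3.22, adjusted p = 0.0028). Cdkn1a, a cell cycle inhibitor, was at 1.02 at 48 h (adjusted p = 0.098). It had 0 to 5 UMIs per untreated mouse there, with medians of 0.754 CPM in untreated and 0.823 CPM in treated mice. Cdkn2a had 12 to 19 UMIs per untreated mouse at 48 h, and Prdm1 had 0 to 10 per treated mouse at 72 h.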

How the data were processed

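GC B cells of 39 mice (time course) and of 7 mice in 2 sorted populations (CDK2 sort) were measured with 10x 5′ libraries. The authors aligned reads and counted UMIs with Cell Ranger, version 8.0.1 per the file headers and 6.0.1 per the labels, on mm39, and deposited raw whole-number counts per gene and barcode, with counts of hashtag antibodies that mark the mouse. Cells were assigned to mice here by a hashtag rule after HTODemux (quantile 0.99), which also removed doublets of different mice, while doublets within a mouse remained. Hashtags of 2 mice listed for the CDK2 sort carried no signal, which left 7, and cells with 1 hashtag that had signal but was not listed were left unassigned. The filter asked for 200 or more genes per cell and less than 10% of UMIs from mitochondrial genes. Larger experiment: 16424 barcodes, 13976 assigned to a mouse, 13625 of these past the filter. Smaller experiment: 18233 barcodes, 13187 assigned, 10073 past the filter. CDK2hi: 9358 barcodes, 7811 assigned, 7503 past the filter. CDK2low: 5206 barcodes, 4478 assigned, 4385 past the filter.

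UMIs were summed per mouse. The tests were edgeR 4.0.16 quasi-likelihood tests (filterByExpr, TMM, Benjamini-Hochberg over all genes tested, threshold 0.05) in R 4.3.3, with all 5 groups and the experiment as a term, or with the mouse as a block in the CDK2 sort. In the sort the mouse numbers come from the same animals. Deviations of the populations of 1 mouse from their group means correlated with r of 0.0961 to 0.408 over 10125 genes, and each of the 7 mice correlated best with itself. Phases were called with Seurat 5.3.0 within each library from 41 S and 52 G2-M genes, and a mouse needed 10 cells of a phase. Intervals are 95% confidence intervals. UMI counts of 1 mouse carry counting error, and p-values rest on the spread between mice. Scripts were tested on simulated counts. DESeq2 1.42.0, other filters, thinning and single experiments were tried as alternatives. Thinning left out cells under 2871 UMIs in the time course and under 5264 in the sort, so it also changed which cells were compared.

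The members and the gene lists were chosen with earlier results of these data known, and no list is independent evidence. Named were all members and, from each list, up to 3 genes by the size of their change among those that passed. Immunoglobulin heavy chain transcripts were not used here.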

Additional observations from a re-analysis of the deposited data

Results flagged for a closer look

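Among 70 combinations of member and group, 3 held a mouse far from the others, and chance gives about 1 in 20. Dnmt1 was 286 CPM in 1 mouse at 0 h, whose nearest neighbour had 366 CPM, and 67.0% of the 312 cells of that mouse were called G0-G1. Dnmt1 was also low in 1 CDK2hi sample, at 460 CPM with the nearest at 477 CPM. Ezh1 was 13.5 CPM in 1 CDK2low sample, with the nearest at 16.7 CPM.

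The treatment effect at 48 h differed from that at 72 h by the interaction test for Uhrf1 (0.51 on the log2 scale), Ezh2 (0.45), Dnmt1 (0.36), Suz12 (0.34) and Tet3 (-0.27). The share of G0-G1 cells differed in the same comparison, at 15.5 to 21.9% in treated mice at 48 h and 35.3 to 54.6% at 72 h, and its part in the difference was not tested.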

How the results depend on the processing

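The 35 called results of members kept their direction in all 377 alternatives and their call in 344. Of 593 alternatives of results that were not called, 15 gained a call and 55 changed sign, 2 of them for Dnmt3b in the CDK2 sort, where no call of a member changed. The numbers of genes called depended more on the setting. The counts reported here were 4843 (48 h), 874 (72 h), 5019 (48 to 72 h), 13 and 451 (untreated 48 h and 72 h against 0 h) and 3217 (difference of the effects). In the same order they were 2680, 217, 3104, 5, 77 and 1222 with no term for the experiment, 3120, 383, 2727, 8, 191 and 1611 in thinned cells, and 2149, 22, 2661, 0, 3 and 768 in the smaller experiment, which has fewer mice. Untreated 48 h against 0 h gave 25 genes by DESeq2, 21 with no filter on low counts and 4 with only B1-8hi-paired cells, which gave 1984 for the difference. Fitting only the groups compared gave 256 for untreated 72 h. In the sort, 7604 genes were called, 7197 to 7573 without 1 mouse, and 7054 with no replicate block, which changed no member's call; no other comparison had paired mice.

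After the data were seen, library totals without TMM and a fit without the 0 h mouse with the largest G0-G1 share were added. Without TMM, genes called higher and lower were 1888 and 3079 at 48 h (2683 and 2160 with TMM), 3514 and 1832 from 48 to 72 h (2281 and 2738), 1258 and 2087 for the difference (1887 and 1330), 202 and 188 for untreated 72 h (183 and 268) and 2402 and 5830 in the sort (3691 and 3913). The median of all genes shifted from -0.01 to 0.09 from 48 to 72 h. Mat2b in the sort reversed, from 0.09 to -0.10. Eed from 48 to 72 h was lost (-0.09, adjusted p = 0.0546), and Dnmt3a (-0.31, adjusted p = 0.0161) and Tet3 (-0.19, adjusted p = 0.0182) at 48 h and Ezh1 for the difference (-0.40, adjusted p = 0.0479) were gained. Without the 0 h mouse, Dnmt3a (-0.26, adjusted p = 0.0473) and Tet3 (-0.14, adjusted p = 0.0279) were gained at 48 h. Dnmt3a at 48 h was also gained with no filter on cells (adjusted p = 0.0413) and by the highest hashtag (adjusted p = 0.0230). From 48 to 72 h, Suz12 (adjusted p = 0.0509) and Tet3 (adjusted p = 0.148) were lost with no term for the experiment, and Tet3 with only B1-8hi-paired cells (adjusted p = 0.0904). For the difference, Ezh1 was also gained with only the groups compared (-0.33, adjusted p = 0.0463) and by the highest hashtag (-0.38, adjusted p = 0.0484), and Tet3 was lost with no term for the experiment (adjusted p = 0.252) and with only B1-8hi-paired cells (adjusted p = 0.0855). The Dnmt3a call at 72 h was also lost with no term for the experiment (adjusted p = 0.124), with only B1-8hi-paired cells (adjusted p = 0.432) and with no filter on cells (adjusted p = 0.0534), and that of Suz12 for the difference with no term for the experiment (adjusted p = 0.223). Other causes were not tested. Low UMI counts limit Dnmt3b, Tet2, Dnmt3a and Ezh1, and among the target genes Cdkn1a, Cdkn2a and Prdm1.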

Other observations

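Over the 39 mice of the time course, on log2(CPM + 1) values centred within each experiment, the genes most like Ezh2 by Pearson's r among 10219 others were the proliferation genes Mki67 (0.94) and Top2a (0.93), and those most like Ezh1 were Ap3b1 (0.86), Dram2 (0.85) and Dennd1c (0.84). The points share libraries and the treatment groups, and no test was made.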
